A study of Rattus norvegicus with 8 samples.

Results

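Mitochondrial ribosomal proteins were followed in the whole blood of rats fed a high-fat diet with or without mulberry leaf powder. The members were every probe set that the annotation of the array assigned to exactly 1 gene and whose gene symbol began with Mrpl or Mrps and a number, Mrpl for the large and Mrps for the small subunit. The rule used no measured value and gave 97 probe sets of 73 genes, out of 31042 probe sets tested (those naming a single gene covered 14217 genes). Male Wistar rats, 7 weeks old when bought, had 1 week on a normal diet and then 8 weeks on their study diet. They were bled on day 56 after a night without food. One group ate the high-fat diet and the other ate that high-fat diet containing 1% mulberry leaf powder, so the high-fat diet was common to both. Each diet was given to 10 rats and was represented by 4 arrays, described as biological replicates. Whether an array held RNA from 1 rat or was pooled is not stated. The p-values below rest on how much these samples varied among themselves, which may be technical, and on the spread of all tested probe sets. A group on the normal diet was not analysed here. The design asks which transcripts in blood differ when mulberry leaf is added to the high-fat diet.

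Mitochondria have their own ribosome, which translates the few proteins encoded by mitochondrial DNA, core subunits of the respiratory chain and of ATP synthase. Its RNAs come from mitochondrial DNA, whereas its proteins are encoded in the nucleus, made in the cytosol and imported. Some of these proteins have relatives in bacterial ribosomes, and others were added during mitochondrial evolution. In blood, mature red cells of mammals carry no mitochondria, while leukocytes and platelets do.

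The 73 genes lay on 18 chromosomes, and RefSeq held a promoter window, from 250 bases before to 50 bases after a transcription start, for 59 of them (61 windows, build GRCr8). Letters known as binding sites of regulators of nuclear genes for mitochondria were searched on both strands. The NRF1 letters (GCGC, any base, then TGCGC) occurred in 14.8% of the member windows and in 4.25% of all 33469 windows of the same length. The ETS letters CCGGAAG occurred in 32.8% against 8.75%, and the YY1 letters AAGATGG in 24.6% against 7.01%. A TATAAA box was about as frequent in the members (13.1%) as in all windows (14.2%). Of the member windows, 29.5% started within 1000 bases of a gene running the opposite way, against 11.0% of all. The median share of G and C was 56% in the member windows and 51.7% in all, and the windows compared were not matched for it. The motif results are matches of letters, with no measurement of binding.

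The windows below belong to members whose values are given further on: Mrps18b, whose window held all 3 motifs, Mrps27, whose probe sets differed in opposite directions, Mrpl14, which had the smallest p of the members, and Mrpl46, which shares its start region with Mrps11. Each is written 5′ to 3′ on the strand of its gene, from RefSeq, with matches in capitals on whichever strand they were found. No 2 matches overlap in them. Mrpl14 has a further window in RefSeq (chr9:22805815-22806114, minus strand), not printed, which held no match of the NRF1, ETS or YY1 letters.
Mrps18b, chr20:2842756-2843055, plus strand (NRF1, ETS and YY1 matches in that order): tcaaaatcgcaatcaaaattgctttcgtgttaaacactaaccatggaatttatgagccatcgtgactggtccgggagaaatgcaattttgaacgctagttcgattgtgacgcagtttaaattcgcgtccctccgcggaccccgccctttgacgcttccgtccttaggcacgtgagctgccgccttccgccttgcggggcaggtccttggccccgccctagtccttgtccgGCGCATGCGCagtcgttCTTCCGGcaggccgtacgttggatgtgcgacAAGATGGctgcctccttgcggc
Mrps27, chr2:32473954-32474253, plus strand (ETS, then YY1): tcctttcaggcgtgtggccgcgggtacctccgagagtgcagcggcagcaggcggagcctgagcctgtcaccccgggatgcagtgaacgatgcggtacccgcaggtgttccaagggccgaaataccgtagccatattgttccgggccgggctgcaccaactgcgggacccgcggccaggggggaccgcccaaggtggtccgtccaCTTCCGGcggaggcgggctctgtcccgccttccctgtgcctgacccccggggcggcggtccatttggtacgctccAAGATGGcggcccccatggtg
Mrpl14, chr9:22811184-22811483, minus strand (NRF1): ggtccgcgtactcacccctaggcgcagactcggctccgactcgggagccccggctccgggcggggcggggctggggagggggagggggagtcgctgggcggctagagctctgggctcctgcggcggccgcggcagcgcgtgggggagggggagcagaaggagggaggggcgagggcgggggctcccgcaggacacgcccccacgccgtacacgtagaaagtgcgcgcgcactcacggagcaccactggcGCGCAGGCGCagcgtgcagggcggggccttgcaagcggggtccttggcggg
Mrpl46, chr1:142116981-142117280, minus strand (YY1): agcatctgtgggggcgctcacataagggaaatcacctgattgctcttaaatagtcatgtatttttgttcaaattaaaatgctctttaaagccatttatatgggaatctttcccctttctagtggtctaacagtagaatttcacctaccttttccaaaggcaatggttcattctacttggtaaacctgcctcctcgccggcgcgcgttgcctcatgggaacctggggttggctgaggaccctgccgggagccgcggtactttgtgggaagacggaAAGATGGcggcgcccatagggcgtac

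The deposited log2 values of a probe set hardly differed between arrays: over the 8 arrays the members had a median SD of 4.50e-06, close to the 5.31e-06 of all tested probe sets. Mrpl1, a protein of the mobile stalk beside the site where transfer RNA leaves, stood apart with an SD of 0.000835 (chosen after its values were seen). Differences are therefore given in SD units, where the spread of each probe set over the 8 arrays, as an SD, counts as 1. A value for an array is its deviation from the probe set's mean in these units, and a difference is mulberry minus high-fat. Such a difference is not a fold change, and says nothing of the size of a change in transcript number. Of the members, 82 of 97 lay above the median deposited level of all tested probe sets.

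No member passed the test between the diets. The variance that limma uses for a probe set is drawn toward a value common to all tested probe sets. Its standard error (SE) and p therefore do not come from the scatter of its own arrays alone. Where the deposited SD is small this raises the SE, so small p-values go more readily to probe sets of larger deposited SD. With limma and Benjamini-Hochberg adjustment over all tested probe sets, 0 of 97 members had an adjusted p under 0.05, and 0% of all probe sets did. At an unadjusted p under 0.05, limma gave 6 of 97 members (6.19%) against 4.36% of all tested. Of these 6, 5 had a lower mean with mulberry (1.61% of all tested were such) and 1 a higher mean (2.74%). For 4 members, 4.12% of them, every mulberry array was lower than every high-fat array, against 0.915% of all tested. The reverse order was seen for 0 members and for 1.6% of all tested.

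As deposited, 57 of 97 members had a lower mean with mulberry and the median difference was -0.194, but it was 1.17 with 3 members lower after median centring, 0 with 39 lower, 38 higher and 20 at exactly 0 after quantile normalization, and 0.0612 without high-fat replicate 4. Among the other arrays, leaving out high-fat replicate 2 gave -0.0396, mulberry replicate 3 -0.0349, high-fat replicate 3 -0.577, high-fat replicate 1 -0.356, mulberry replicate 2 -0.362 and mulberry replicate 4 -0.316. Among all tested probe sets 47.3% had a lower and 52.7% a higher mean, and their median was 0.0559 as deposited, 1.15 after median centring and 0 after quantile normalization, where 13840 were lower, 8737 higher and 8465 at exactly 0. The members' shift after median centring was thus that of the array as a whole. The diets overlapped widely in the mean over all members, which was 0.0834 ± 0.527 (SD, n = 4) with the high-fat diet and -0.0834 ± 0.243 (SD, n = 4) with mulberry.

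Large-subunit probe sets had a lower mean with mulberry in 41 of 60 cases (median -0.280) and small-subunit ones in 16 of 37 (median 0.0941), whereas after median centring it was 3 of 60 and 0 of 37, and after quantile normalization the medians were 0 (large subunit 25 lower, 23 higher and 12 at 0, small subunit 14, 15 and 8). The large-subunit median was -0.698 without high-fat replicate 3, -0.436 without mulberry replicate 4, -0.149 without high-fat replicate 2 and -0.0874 without high-fat replicate 4. The small-subunit median had no stable sign. It turned to -0.183 without high-fat replicate 1 (24 of 37 lower), -0.154 without high-fat replicate 3, -0.0444 without mulberry replicate 1 and -0.0343 without mulberry replicate 4, and to -0.242 with the hybridization controls (23 of 37 lower), -0.167 with the polyA controls and -0.0988 with the erythroid markers as a covariate. It was 0.307 without high-fat replicate 2, 0.261 without high-fat replicate 4 and 0.183 without mulberry replicate 3.

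Of large-subunit proteins with a bacterial relative, 24 of 29 were lower with a median of -0.428, but 3 of 29 after median centring, and 11 lower, 11 higher and 7 at 0 after quantile normalization. Their median was -0.870 without high-fat replicate 3, -0.710 without mulberry replicate 4 and -0.272 without mulberry replicate 3 (19 of 29 lower). Large-subunit proteins specific to mitochondria were lower in 17 of 31 with a median of -0.0523, which ran from -0.553 without high-fat replicate 3 to 0.124 without high-fat replicate 2. In the small subunit 11 of 23 with a bacterial relative were lower, with a median from -0.327 without high-fat replicate 1 to 0.261 without high-fat replicate 4, and 5 of 14 specific to mitochondria, with a median from -0.144 without high-fat replicate 1 to 0.512 without high-fat replicate 2. In these last 3 groups 0 were lower after median centring, and after quantile normalization 14, 8 and 6 were lower, 12, 11 and 4 higher and 5, 4 and 4 at 0. The differences between these groups were not tested.

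**Figure D1:**
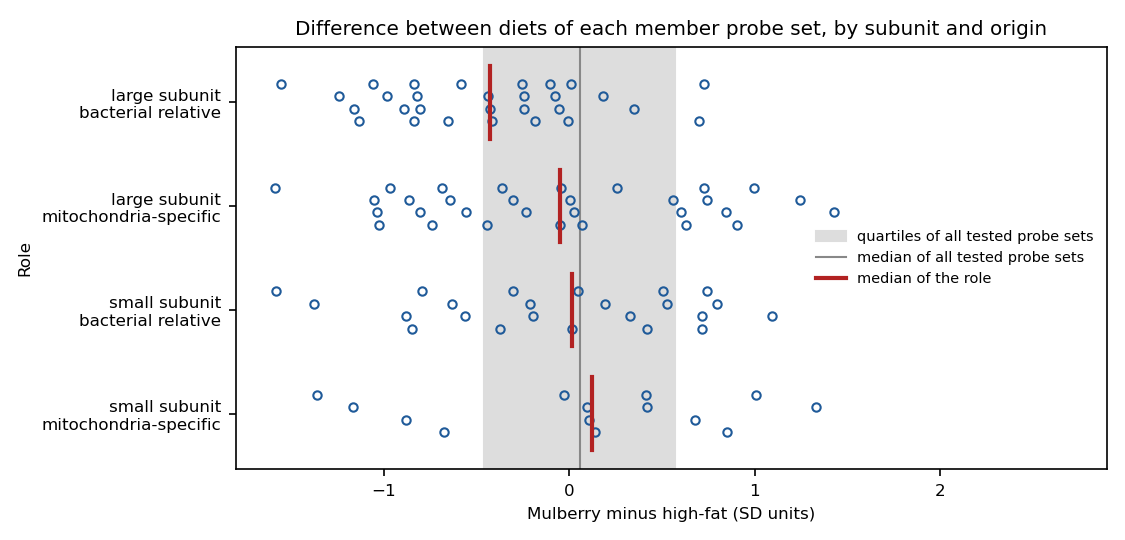
Difference between the diets (mulberry minus high-fat, SD units, deposited values) for each of the 97 member probe sets, in 4 rows by subunit and origin, with the median of each row in red and the quartiles of all tested probe sets in grey. The large-subunit row with bacterial relatives has its median at -0.428 and the small-subunit mitochondria-specific row at 0.121 (-0.144 without high-fat replicate 1); median centring puts all 4 medians above 1, and quantile normalization puts all 4 at 0.

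Places within the large subunit can be read the same way, on the deposited scale. The stalk recruits the translation factors, and its 6 probe sets, of Mrpl10, Mrpl12, Mrpl53 and Mrpl54, differed from -0.835 to 0.260. The mouth of the exit tunnel releases the new protein at the inner membrane. Mrpl45, which anchors the ribosome to that membrane, differed by 0.560 ± 0.736 (SE), and the 5 probe sets of this place ran from -0.655 (Mrpl23) to 1.24 (Mrpl39). Of the 9 probe sets of the central protuberance, 7 had a lower mean (median -0.444), against 0 after median centring, and 4 with 3 higher and 2 at 0 after quantile normalization. The median was -1.16 without high-fat replicate 3, -0.121 without high-fat replicate 2, -0.141 without high-fat replicate 4, -0.242 without mulberry replicate 3 and -0.0890 with the polyA controls as a covariate. Mrps30 and Mrps18a carry small-subunit names but sit in the large subunit, where they were counted here. Mrps30 differed by -1.05 ± 0.602 and Mrps18a by -0.304 ± 0.710.

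Mrpl14, at the face where the subunits meet, had the smallest p. Its high-fat arrays stood at -0.350, 0.846, 1.28 and 1.33 and its mulberry arrays at -1.14, -0.608, -0.963 and -0.402. The diets did not overlap, although high-fat replicate 1 was close to mulberry replicate 4. The difference was -1.55 ± 0.400 (SE; limma unadjusted p = 0.00635, adjusted p = 1). Mrpl14 kept the lower mean under every alternative tried, including median centring (-1.28) and quantile normalization (-0.850). Its deposited SD was 6.43e-05, against a member median of 4.50e-06, and the array medians lay up to 9.36e-05 above the lowest. In SD units, the shift by median centring was therefore smaller for Mrpl14 than for most members.

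Mrpl40 belongs to the central protuberance. Its probe set 1374931_at read 0.565, 0.0932, 1.65 and 0.869 in the high-fat arrays and -0.805, -0.203, -0.808 and -1.36 in the mulberry arrays. The diets did not overlap, and the difference was -1.59 ± 0.413 (limma unadjusted p = 0.00671, adjusted p = 1), but 1.00 after median centring and 0 after quantile normalization. RefSeq lists 36 pseudogenes of 21 member genes, among them Mrps18b, Mrps18c, Mrpl46 and Mrps11. For Mrpl40 it lists 2, whose transcripts the probe set might also detect. The other probe set of the gene, 1388517_at, differed by -0.0523 ± 0.993.

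Mrps24 lies at the small-subunit channel through which messenger RNA enters. Probe set 1371649_at read 0.920, 0.277, 0.400 and 1.56 with the high-fat diet and -0.238, -1.25, -1.32 and -0.353 with mulberry, without overlap. The difference was -1.58 ± 0.606 (limma unadjusted p = 0.0361, adjusted p = 1), but 1.15 after median centring and 0 after quantile normalization. The other Mrps24 probe set, 1378908_at, differed by 0.529 ± 0.693.

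Mrps7 binds ribosomal RNA in the head of the small subunit. Its high-fat arrays stood at 2.05, 0.255, 0.161 and 0.282 and its mulberry arrays at -0.848, 0.0150, -1.12 and -0.796. The groups did not overlap, and high-fat replicate 1 stood far above the rest. The difference was -1.38 ± 0.565 (limma unadjusted p = 0.0460, adjusted p = 1), 0.273 after quantile normalization and 1.09 after median centring.

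Mrps27, a small-subunit protein of the pentatricopeptide repeat family, had probe sets among the smallest p in both directions. Probe set 1393164_at read 0.795, 0.312, 1.05 and 0.564 with the high-fat diet and -1.70, 0.556, -0.347 and -1.24 with mulberry (difference -1.36 ± 0.511, limma unadjusted p = 0.0330, adjusted p = 1). Probe set 1372916_at read 0.135, -0.800, -0.905 and -1.09 with the high-fat diet and 0.408, 0.0882, 0.135 and 2.03 with mulberry (difference 1.33 ± 0.508, limma unadjusted p = 0.0353, adjusted p = 1). Both pairs of groups overlapped, by mulberry replicate 2 in the first and high-fat replicate 1 in the second. Over the 8 arrays the probe sets had a correlation of -0.703, the lowest of any gene measured more than once among the members. The third, 1386471_at, differed by 1.01 ± 2.10. Its SDs within the diets were 0.957 (high-fat) and 0.861 (mulberry). Its deposited SD was only 3.33e-07, so the large SE reflects the common variance of limma more than scatter of its arrays. All 3 probe sets were below 0 after quantile normalization (-0.707, -0.483 and -0.622) and above 0 after median centring (0.948, 1.44 and 1.18). The probe sets of the gene gave no single direction.

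**Figure D2:**
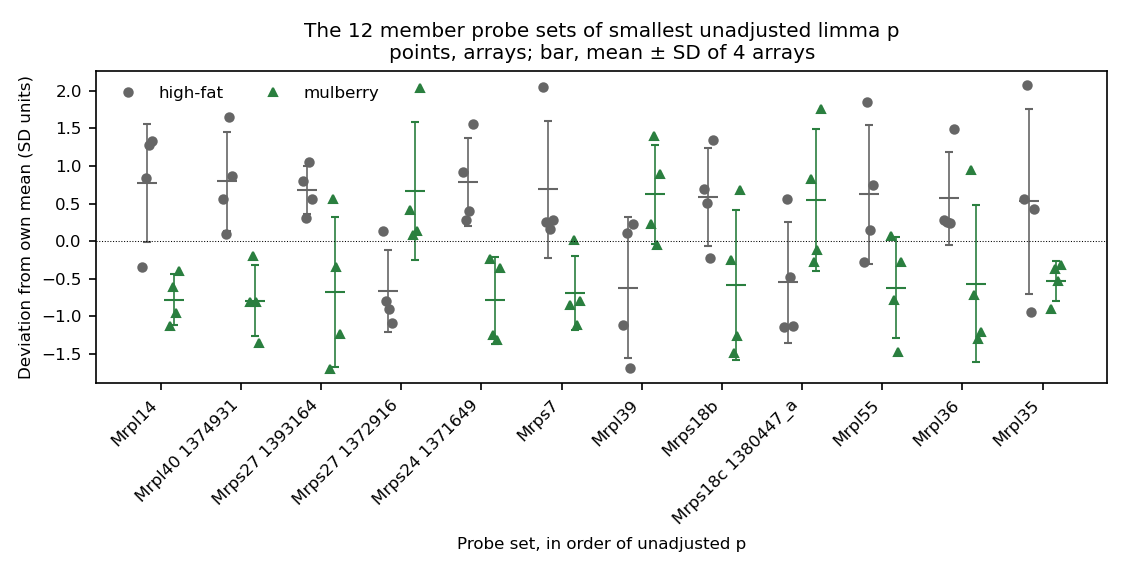
Deviation from the probe set's own mean (SD units) in each high-fat array (grey circles) and mulberry array (green triangles), with mean ± SD of 4 arrays, for the 12 member probe sets of smallest unadjusted limma p. Mrpl14, Mrpl40, Mrps24 and Mrps7 are without overlap between the diets on the deposited scale shown; none of the 12 passed after adjustment, and median centring or quantile normalization turned the sign of all but Mrpl14 and Mrps18c.

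The remaining members of smallest p with a lower mean were Mrps18b, one of a small family of proteins related to bacterial S18 (-1.17 ± 0.581), and 3 large-subunit proteins with bacterial relatives. These were Mrpl55 (-1.24 ± 0.681), Mrpl36 (-1.14 ± 0.624) and Mrpl35 (-1.06 ± 0.596). The diets overlapped in all 4 genes. After median centring they differed by 1.15, 1.15, 1.15 and 0.872, in the order named. Mrpl36 had 3 high-fat arrays within 0.241 to 0.275 and replicate 4 at 1.495. Of the S18 relatives, Mrps18b and Mrps18a were counted here as specific to mitochondria and Mrps18c as having a bacterial relative.

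Higher means with mulberry were given by Mrpl39, a large-subunit protein related to a transfer RNA synthetase. It read -1.12, 0.104, -1.69 and 0.223 with the high-fat diet and 0.231, 1.40, -0.0463 and 0.897 with mulberry. High-fat replicates 2 and 4 lay above mulberry replicate 3. The difference was 1.24 ± 0.543 (limma unadjusted p = 0.0572, adjusted p = 1), and -0.275 after quantile normalization. Mrps18c, a further S18 relative, differed by 1.09 ± 0.582 in probe set 1380447_a_at, which may match several transcripts. This probe set kept the direction under every alternative tried, with 0.901 after quantile normalization and 1.26 after median centring. Median centring put 94 of 97 members above 0. The deposited SD of this probe set, 0.000163, was far above the member median of 4.50e-06. The other probe sets of the gene differed by 0.794 ± 0.651 (1379378_at) and 0.0154 ± 0.734 (1382418_at).

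Mrpl46 and Mrps11 start head to head, 234 bases apart, so most of the Mrpl46 window printed above is also, on the opposite strand, the window of Mrps11. Mrpl46, of the central protuberance, read -0.711, 0.196, -1.19 and -1.15 with the high-fat diet and 1.15, 1.34, 0.698 and -0.340 with mulberry (difference 1.43 ± 0.924). Mrps11, which lies on the small-subunit platform and was chosen after its values were seen, read 1.14, 0.820, 0.0411 and -0.247 and then 0.466, 0.346, -0.472 and -2.10 (difference -0.879 ± 0.636). As deposited, the neighbours thus had differences of opposite sign, in both genes with overlap between the diets and with neither past the test. Median centring left 0 of 37 small-subunit probe sets lower, so Mrps11 turned to higher, as Mrpl46 was, and the signs were no longer opposite. After quantile normalization Mrpl46 turned to -0.532.

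Differences were then read by motif. Probe sets of genes with an ETS match had a median difference of -0.233, and those without -0.203. With and without the YY1 letters the medians were -0.191 and -0.212. With and without the NRF1 letters they were -0.0791 (11 probe sets) and -0.223 (70 probe sets). All are on the deposited scale, and no test was made of them.

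Of the 73 genes, 18 were measured by more than 1 probe set. In 11 of these 18 the probe sets shared a direction as deposited, among them Mrpl37, whose 3 probe sets differed by 0.741, 0.728 and 0.630, and in 7 they did not. Besides Mrps24 and Mrps27, the genes with both signs were Mrpl49 (-1.03 and 0.603), Mrpl50 (-1.03 and 0.846), Mrpl51, Mrps9 (0.503 and -0.194) and Mrps22 (0.105 and -0.0287). The 4 probe sets of Mrpl51 differed by -0.684, -0.559, 0.0260 and 0.00447, with SEs from 0.672 to 2.88. The largest SE belongs to 1390509_a_at, whose deposited SD of 2.40e-07 was the lowest of the members, and is not array scatter alone. The median correlation over the 8 arrays was 0.0674 for the 31 pairs of probe sets of 1 gene and 0.190 for the 4625 pairs of different genes. Probe sets of 1 gene thus had the lower median, as a description over 8 arrays. They ranged from -0.703 (Mrps27) to 0.734 (Mrps18c), and 12 of the 31 were below 0.

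**Figure D3:**
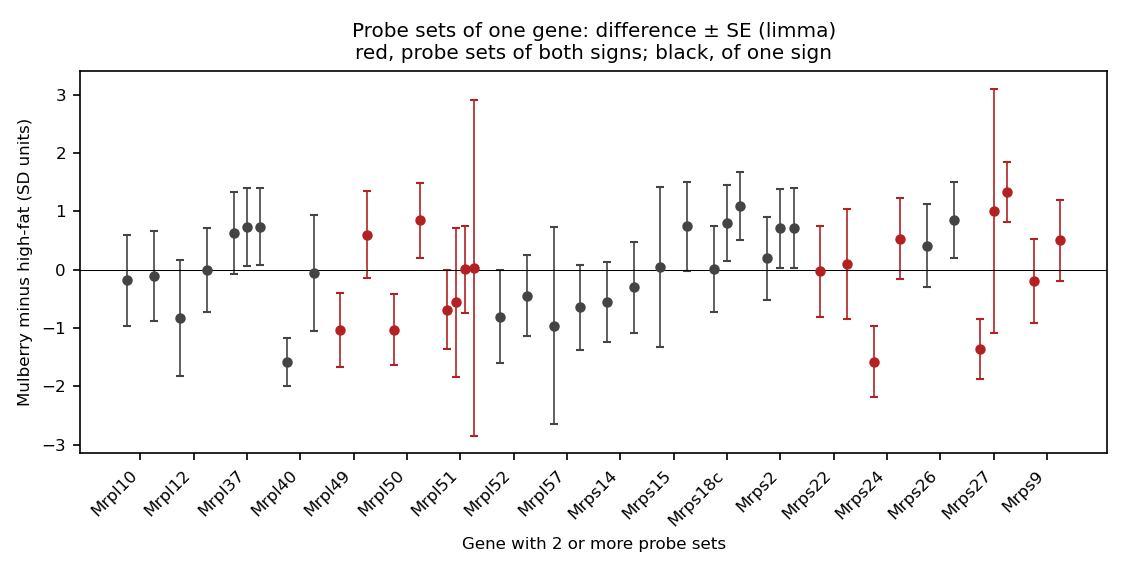
Difference between the diets (mulberry minus high-fat, SD units) ± SE from limma for each probe set of the 18 member genes with 2 or more probe sets, on the deposited scale. The SE includes the common variance of limma and is not array scatter alone. Red marks the 7 genes whose probe sets lie on both sides of 0 and black the 11 whose probe sets share a sign. The red points of Mrps27 lie at -1.36, 1.01 and 1.33; after median centring 94 of the 97 member probe sets are above 0, and after quantile normalization all 3 of Mrps27 are below 0.

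The level of the members differed between arrays of the same diet. Their mean over all 97 probe sets was -0.261, 0.574, -0.471 and 0.491 in the high-fat arrays and 0.00285, -0.0797, -0.417 and 0.160 in the mulberry arrays. High-fat replicates 2 and 4 were high and high-fat replicates 1 and 3 and mulberry replicate 3 low, so that the high-fat arrays alone covered the range of the mulberry arrays. In high-fat replicate 2, 74 of 97 members stood above their own mean (51.2% of all tested), and in replicate 4, 71 did (44.6%). In high-fat replicate 3, 30 did (50.5%), and in mulberry replicate 3, 28 did (54.4%). The same mean over all tested probe sets lay between -0.0882 and 0.104. This order depended on the scale: after quantile normalization high-fat replicate 4 was at -0.623 and mulberry replicate 1 lowest at -0.867, and after median centring mulberry replicates 2 and 3 were highest at 1.09 and 1.56.

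**Figure D4:**
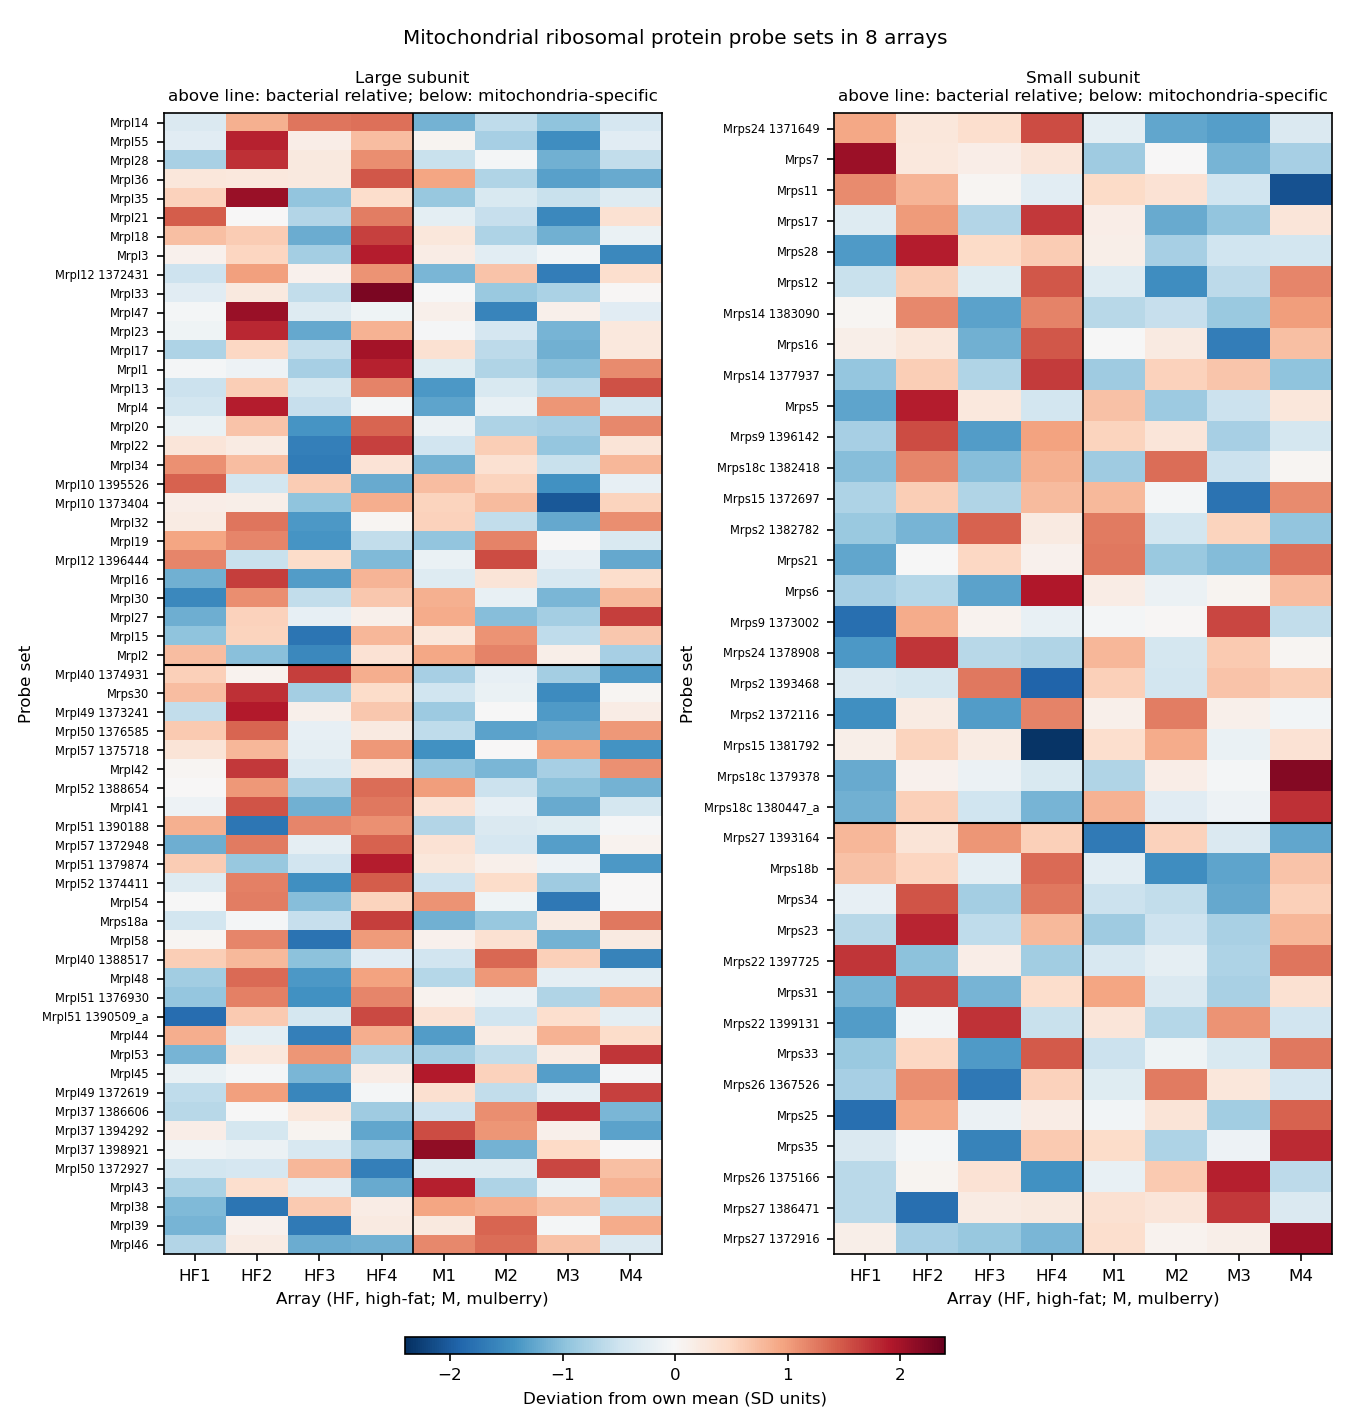
Deviation of each member probe set from its own mean (SD units, colour) in the 4 high-fat arrays (HF1 to HF4) and the 4 mulberry arrays (M1 to M4), with the large subunit on the left, the small subunit on the right and each list sorted by difference within its origin. Columns HF2 and HF4 are mostly red (74 and 71 of 97 members above their mean) and HF3 and M3 mostly blue (30 and 28 above), as deposited; quantile normalization and median centring change this order.

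Over the 4656 pairs of members the mean correlation across the 8 arrays was 0.144, against 0.00504 over all tested probe sets, and 63.0% of the pairs were above 0. It was 0.156 with the diet means removed (0.00481 for all tested) and from 0.118 to 0.158 when an array was left out. The contrast with all tested probe sets depended on the scale: after quantile normalization the mean was 0.231 for the 87 members with any spread and 0.236 for all tested with any spread, and after median centring 0.797 and 0.775. As deposited, it was 0.308 among large-subunit proteins with a bacterial relative and 0.0800 among those specific to mitochondria, and in the small subunit 0.121 and 0.0369. It was 0.430 among the cytosolic ribosomal proteins and 0.207 in the respiratory chain, both lists described next. For members with 1 probe set per gene, the brightest, it was 0.274, and among members above the median level of the array 0.239. The correlations are over 8 arrays that share labelling and hybridization, and are given as a description.

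Cytosolic ribosomal proteins and the respiratory chain, whose mitochondrial subunits the mitochondrial ribosome makes, were set beside the members. Of 50 probe sets of cytosolic ribosomal proteins, 45 had a lower mean with mulberry (median -1.25, 1.04 after median centring, -0.741 with the hybridization controls as a covariate, and 0 after quantile normalization, where 38 of 50 were at exactly 0), and 22 had that direction with an unadjusted limma p under 0.05, against 5 of 97 members. Their array means were 0.336, 0.390, 0.0217 and 1.23 with the high-fat diet and -0.673, -0.434, -0.819 and -0.0513 with mulberry, without overlap, unlike the members. Of 84 probe sets of nuclear-encoded respiratory chain and ATP synthase subunits, 61 were lower (median -0.316, 1.18 after median centring, and 0 after quantile normalization, where 38 of 84 were at exactly 0). That median was -0.0580 without high-fat replicate 4 (48 lower), -0.164 without mulberry replicate 2, -0.174 without mulberry replicate 3, -0.574 without mulberry replicate 4 and -0.0787 with the hybridization controls (44 lower). Their array means overlapped, as those of the members did, with high-fat replicate 4 again the highest at 0.706. In high-fat replicate 2 the members stood at 0.574 and the respiratory chain at 0.0461. The differences between these lists were not tested.

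**Figure D5:**
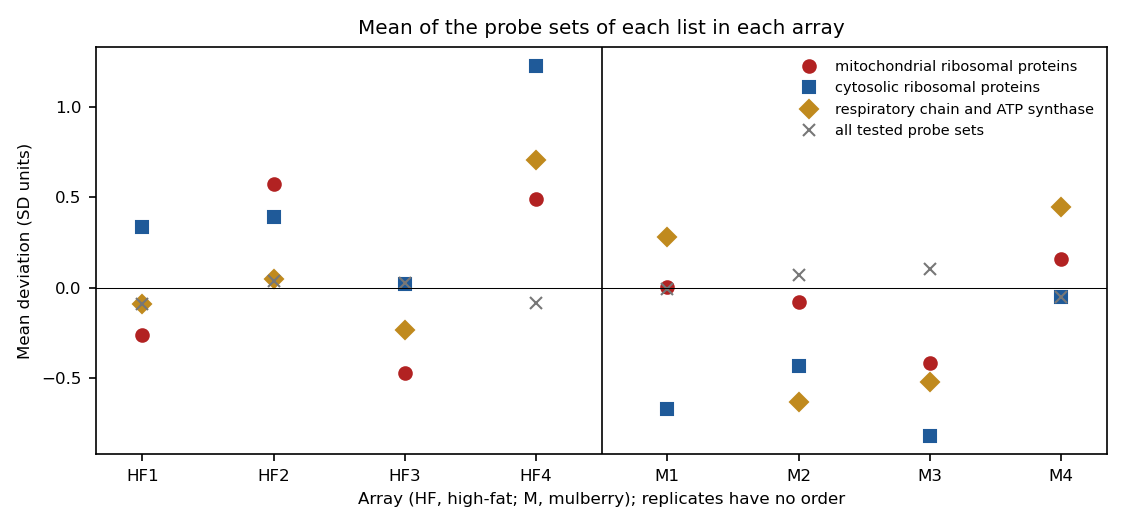
Mean deviation (SD units, deposited scale) over the probe sets of 3 lists and of all tested probe sets, in each of the 8 arrays. The mitochondrial ribosomal proteins range from -0.471 to 0.574 within the high-fat arrays, while the cytosolic ribosomal proteins are above 0 in all 4 high-fat and below 0 in all 4 mulberry arrays; median centring turns the difference of both lists, and quantile normalization changes the order of the arrays for the members.

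Genes that build or serve the mitochondrial ribosome gave no call either: limma called 0 of them after adjustment. Each gene of these lists, and each cell type marker below, was read from its brightest probe set only. Of 5 subunits that carry other names 4 had a lower mean (median -0.430), among them Ptcd3 (-0.555 ± 0.695), while Aurkaip1 differed by 0.730 ± 0.677. Ptcd3 turned to 0.707 after quantile normalization and Aurkaip1 to -0.483. Of 26 assembly factors 16 were lower (median -0.314), and of 11 genes of mitochondrial transcription 8 (median -0.525). After median centring these counts were 0 in each of these lists, and after quantile normalization 2, 12 and 7, with 1, 4 and 0 at exactly 0. Without high-fat replicate 2 the medians of the subunits with other names and of the assembly factors turned to 0.0192 and 0.0819, and that of transcription ran from -0.828 without high-fat replicate 3 to -0.329 without mulberry replicate 3. Mtg1, a GTPase of large-subunit assembly, read 1.21, 1.20, 0.536 and 0.00661 with the high-fat diet and 0.124, -0.395, -1.48 and -1.20 with mulberry. Only high-fat replicate 4 and mulberry replicate 1 overlapped, and the difference was -1.48 ± 0.465 (limma unadjusted p = 0.0162, adjusted p = 1), -0.184 after quantile normalization and 1.02 after median centring. Tfb1m, which methylates the small ribosomal RNA, differed by -1.32 ± 0.539. Hsd17b10, also a part of mitochondrial RNase P, differed by -1.17 ± 0.570 and Polrmt, the mitochondrial RNA polymerase, by -1.09 ± 0.604. After median centring Tfb1m, Hsd17b10 and Polrmt differed by 1.05, 1.09 and 1.08, in that order.

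With 1 probe set per gene, 47 of 73 members were lower as deposited, with a median of -0.304. On that measure translation factors had 7 of 11 lower (median -0.237) and mitochondrial aminoacyl-tRNA synthetases 9 of 15 (median -0.197). After median centring 0 of 11 and 0 of 15 were lower, after quantile normalization 3 and 10 were, with 4 of each list at exactly 0, and without high-fat replicate 2 the medians turned to 0.00325 and 0.0153. Those of smallest p were Gfm2, a factor of ribosome recycling (-0.708 ± 0.699), Mtrfr, which rescues stalled ribosomes (0.659 ± 0.880), Rars2 (-0.798 ± 0.661) and Sars2 (-0.779 ± 0.675). Median centring turned Gfm2 to 1.09, Rars2 to 1.05 and Sars2 to 1.09, and quantile normalization turned Gfm2 to 0.216 and Mtrfr to -0.483. Among 9 nuclear regulators of mitochondrial genes the median was -0.0711, which turned to 0.0716 after quantile normalization, 1.22 after median centring, 0.490 without high-fat replicate 4, 0.177 without high-fat replicate 2 and 0.236 without mulberry replicate 3. Nrf1, the factor whose letters were searched above, read -0.543, -0.783, -1.005 and -0.836 with the high-fat diet and 0.940, 0.373, 0.0216 and 1.83 with mulberry. All mulberry arrays lay above all high-fat arrays, an order seen for 1.6% of all tested probe sets. The difference was 1.58 ± 0.628 (limma unadjusted p = 0.0406, adjusted p = 1). Nrf1 stayed higher after quantile normalization (1.51). It was at 1.23 after median centring, which gave 30090 of all 31042 tested probe sets a higher mean (median 1.15), so this says little of Nrf1. Esrra, a nuclear receptor of mitochondrial genes, differed by -1.05 ± 0.597, but by 1.01 after median centring and 0 after quantile normalization.

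Blood is a mixture, and in it fewer cells of a type and less RNA per cell cannot be told apart. Markers of the blood cell types were measured, with all 11 erythroid, 12 T cell, 7 B cell and 10 platelet markers above the median level of the array, 9 of 10 of monocytes, 8 of 11 of natural killer cells and 6 of 10 of neutrophils. As deposited, 7 of 7 B cell markers had a lower mean with mulberry (median -0.749), and 10 of 11 natural killer cell markers did (-0.898). So did 8 of 10 monocyte (-0.626), 8 of 11 erythroid (-0.394) and 6 of 12 T cell markers (0.0399). A higher mean was seen for 10 of 10 platelet (0.839) and 8 of 10 neutrophil markers (0.356). These differences were not tested. The array means of the lists overlapped between the diets. For erythroid markers they ran from -0.573 to 0.866 with the high-fat diet and from -0.480 to 0.268 with mulberry, and for B cell markers from -0.787 to 1.18 and from -0.888 to 0.444. Monocyte markers ran from -0.373 to 1.58 and from -0.918 to 0.389, natural killer cell markers from -0.456 to 1.84 and from -0.603 to -0.184, and platelet markers from -1.53 to 0.186 and from -0.387 to 1.62. In high-fat replicate 2, where the members were highest, B cell markers averaged 1.18, T cell markers 1.01 and neutrophil markers -1.42. B cell markers also averaged 0.930 in high-fat replicate 1, where the members were low (-0.261). In high-fat replicate 4, natural killer cell markers averaged 1.84, monocyte markers 1.58, platelet markers -1.53 and erythroid markers -0.573. T cell markers averaged -0.234 there, with the members at 0.491. Erythroid markers were highest in high-fat replicates 1 and 3 (0.866 and 0.536), where the members were low. In mulberry replicate 3, where the members were also low (-0.417), erythroid markers averaged -0.301. With the erythroid mean in the model the members' median difference was -0.469 with 64 of 97 lower. Hybridization controls averaged -1.44, 0.439, -0.160 and -1.07 in the high-fat arrays and 1.30, 0.695, 0.473 and -0.236 in the mulberry arrays, and with them in the model the median was -0.217. The polyA controls as a covariate gave -0.167. The part of cell composition in the members' pattern was not tested.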

How the data were processed

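Whole-blood RNA was extracted with TRIzol LS and RNeasy, and 200 ng was labelled with the 3′ IVT Express kit, per the labels' protocols. The values deposited by the authors were read as log2 probe set summaries, from their range. How probe sets were summarised and normalised is not given in the sources used here. Arrays span almost no difference per probe set, so values were divided by each probe set's SD over the 8 arrays. The number of arrays limits the precision.

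Of 31099 probe sets, 57 controls were left out. Of the rest, 20826 named 1 gene, 436 several and 9780 none in the platform annotation. All 73 member genes matched RefSeq. Probe sets were tested with limma 3.58.1 in R 4.3.3 (lmFit, eBayes, two-sided, threshold 0.05, Benjamini-Hochberg over 31042), without further normalization. The fit was tested on simulated data with shifts far larger than the differences of the members. Its power for differences of their size was not tested. Summaries used Python 3.11.15 and pandas 2.3.3.

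Named were the 12 members of smallest p, the 4 largest differences in the rarer direction, all probe sets of genes with both signs, the 2 of smallest p per related list, and members of special place. Others are said to be chosen after their values were seen. The members and lists were chosen with earlier results of these data known. The alternatives were quantile normalization, median centring, brighter probe sets only, a replicate block, other variance models, array weights, 3 covariates and leaving out each array. Those for the mean correlation were added after seeing the data.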

Additional observations from a re-analysis of the deposited data

Results flagged for a closer look

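Among the named members, 56 groups of 4 arrays were examined for an array far from the other three, by the gap to its nearest neighbour divided by the range of the group. Chance flags about 1 in 20 groups, and 4 of 56 were flagged. Mrps7 in the high-fat group had a ratio of 0.936, with replicate 1 at 2.05 and the others between 0.161 and 0.282. Mrpl36 in the high-fat group had 0.973, with replicate 4 at 1.495. Mrpl51 1390188_at in the high-fat group had 0.895, with replicate 2 at -1.74 and the others between 0.860 and 1.16. Mrps27 1372916_at in the mulberry group had 0.835, with replicate 4 at 2.03. The flagged arrays were high-fat replicates 1, 2 and 4 and mulberry replicate 4, one for each probe set.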

How the results depend on the processing

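No setting called a member after adjustment (limma), and at an unadjusted p under 0.05 there were 6 members and 1352 of all tested. Across the settings this ran from 2 of 97 members with the polyA controls (878 of 31042 tested) to 10 with median centring (2492 of all tested). Quantile normalization gave 3 members and 534 of all tested, and the replicate block 9 members and 1728. Leaving out high-fat replicate 2 gave 8 members and 1441 of all tested. Without mulberry replicate 4 there were 8 members and 1617, and without high-fat replicate 3 there were 6 members and 2054. Of all tested probe sets, 12 were called after quantile normalization, none of them a member, and 0 under the other settings. Median centring turned the median difference of the members to 1.17 with 3 lower. By its construction it adds the array's own shift: the array medians lay up to 9.36e-05 above the lowest, against a median member SD of 4.50e-06. It turned Mrpl40 1374931_at to 1.00, Mrps27 1393164_at to 0.948, Mrps24 1371649_at to 1.15, Mrps7 to 1.09, Mrps18b to 1.15, Mrpl55 to 1.15, Mrpl36 to 1.15, Mrpl35 to 0.872, Mrpl50 1376585_at to 0.968, Mrpl49 1373241_at to 1.11, Mrpl51 to 1.02 (1390188_at) and 1.17 (1379874_at), Mrps9 1396142_at to 1.15 and Mrps22 1397725_at to 1.18. Quantile normalization turned Mrps27 to -0.483 (1372916_at) and -0.622 (1386471_at), Mrps7 to 0.273, Mrpl39 to -0.275, Mrpl55 to 0.818, Mrpl36 to 0.707, Mrpl35 to 1.22, Mrpl46 to -0.532, Mrps9 1373002_at to -0.180 and Mrpl51 1376930_at to -1.08. With array weights Mrpl51 1376930_at turned to -0.0525. With hybridization controls in the model, Mrpl51 turned to 0.333 (1390188_at), -0.495 (1390509_a_at) and -0.0935 (1376930_at), Mrps24 1378908_at to -0.610, Mrps9 1373002_at to -0.454, and Mrps22 to -0.707 (1399131_at) and 1.05 (1397725_at). With polyA controls, Mrps24 1378908_at turned to -0.167, Mrpl51 to 0.295 (1379874_at) and -0.0334 (1376930_at), and Mrps22 to -0.504 (1399131_at) and 0.0396 (1397725_at). With the erythroid score, Mrps22 1397725_at turned to 0.532 and Mrpl51 to -0.514 (1390509_a_at) and -0.378 (1376930_at). For the turned members other than under median centring, the cause was not tested.

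Without each array in turn, the members' median ran from -0.577 (without high-fat replicate 3) to 0.0612 (without high-fat replicate 4), with 48 to 65 lower; it was -0.0396 without high-fat replicate 2 and -0.0349 without mulberry replicate 3. Members called stayed at 0. Differences that crossed 0 on leaving out an array ran from -0.0178 to 0.880 for Mrps9 1373002_at, -0.742 to 0.354 for Mrps9 1396142_at, -0.356 to 0.909 for Mrps22 1399131_at, -0.501 to 0.686 for Mrps22 1397725_at, -0.798 to 0.675 for Mrpl51 1390509_a_at and -0.553 to 0.430 for Mrpl51 1376930_at.

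The mean correlation of members moved to 0.231 after quantile normalization, 0.797 after median centring, 0.274 with 1 probe set per gene and 0.239 among brighter probe sets. Of the named probe sets, 8 had no value there because they lay below the brightness limit. Whether the replicate numbers pair the arrays was not tested. Same-numbered arrays had correlations of deviations of -0.0462, -0.0505, 0.246 and 0.163, and differently numbered arrays were not compared. With the replicate block the median stayed -0.194 and 0 members were called. At an unadjusted limma p under 0.05 the block gave 9 members and 1728 of all tested, against 6 and 1352 without it. Signal over background was not used here.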
